A study of Mus musculus with 12 samples.

Results

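The genes described here are 9 genes of the cardiac Z-disc and costamere whose products are linked to the sensing of stretch: Ankrd1, Ankrd23, Fhl1, Fhl2, Csrp3, Xirp1, Xirp2, Enah and Synpo2l. They were chosen by name, and every probe set annotated to one of these symbols alone was taken. Xirp2 had 0 such probe sets, so 8 of the 9 were measured, all 8 passed the filter on dim probe sets, and they stand among 10435 genes tested in all. Where a gene had several probe sets, the one with the largest 12-array mean stands for it and the others serve as a check.

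The Z-disc anchors the thin filaments and the ends of titin at the border of each sarcomere, and the costamere ties the outer Z-discs through actin, vinculin, talin and integrins to the cell membrane and the matrix. Several proteins of both sites bind titin or actin and also enter the nucleus or act on transcription, and they are well known for answering mechanical load in heart muscle. Ankrd1 and Ankrd23 encode ankyrin repeat proteins that bind the elastic part of titin in the I-band. Fhl1, Fhl2 and Csrp3 encode LIM domain proteins, which join titin, actin and Z-disc partners to signalling proteins. Xirp1 and Xirp2 encode actin-binding repeat proteins of the intercalated disc and of growing myofibrils. Enah encodes Mena, an Ena/VASP protein that promotes actin filament growth, and Synpo2l encodes a Z-disc protein related to synaptopodin.

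Left ventricular RNA of male C57BL/6 mice was measured on 12 Affymetrix arrays, 1 per mouse, in 4 groups of 3. AB mice had an aortic band, which raises the pressure load on the ventricle, placed at 7 weeks of age and were killed 4 weeks later, and sAB mice had the sham operation and were killed at the same interval. DB3 mice had the band for 4 weeks, then the debanding operation, and were killed 3 days after it, while sDB3 mice had the sham operation and then a step labelled as debanding, under the same schedule. The labels name no transgene or drug, and replicate numbers only name the arrays. All values are the authors' log2 signals, where 1 unit is a doubling, so a level of 1 probe set is not comparable with that of another. The p-values measure the spread between mice within these groups and are two-sided, from limma's moderated test, adjusted by the Benjamini-Hochberg method over all 10435 genes, with a threshold of 0.05.

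Promoter sequence is shown for the 3 genes with the largest differences between AB and sAB that have a motif match before their start site, Ankrd1, Ankrd23 and Synpo2l, and for Fhl2, which did not pass in the comparisons of banding. RefSeq windows on build GRCm38.p6 were found for 8 of the 9 genes, 13 windows in all, each reaching from 250 bases before to 50 bases after the annotated start. Both strands were searched for the CArG box bound by SRF, the MEF2 box, the M-CAT element CATTCC bound by TEAD factors, and TATAAA. The 250 bases before the start are printed 5′ to 3′ on the gene's strand, with motif matches in capitals.
Ankrd1, M-CAT matches on the opposite strand, chr19:36119845-36120094, minus strand: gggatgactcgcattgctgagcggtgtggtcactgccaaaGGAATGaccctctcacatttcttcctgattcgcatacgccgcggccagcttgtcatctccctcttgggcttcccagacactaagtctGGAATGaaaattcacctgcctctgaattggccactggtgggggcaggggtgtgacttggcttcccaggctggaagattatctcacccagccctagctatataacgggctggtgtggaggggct
Ankrd23, an M-CAT match in the second of its windows, chr1:36535740-36535989, minus strand: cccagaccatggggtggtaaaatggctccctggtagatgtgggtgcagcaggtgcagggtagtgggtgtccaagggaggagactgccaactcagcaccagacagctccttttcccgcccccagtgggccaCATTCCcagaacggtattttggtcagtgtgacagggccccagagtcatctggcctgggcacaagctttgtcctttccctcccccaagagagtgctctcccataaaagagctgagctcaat
Synpo2l, a MEF2 box, chr14:20668355-20668604, minus strand: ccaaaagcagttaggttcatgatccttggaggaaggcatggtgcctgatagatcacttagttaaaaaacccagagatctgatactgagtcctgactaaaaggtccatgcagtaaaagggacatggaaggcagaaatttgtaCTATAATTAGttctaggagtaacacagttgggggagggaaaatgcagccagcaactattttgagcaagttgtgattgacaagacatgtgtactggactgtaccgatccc
Fhl2, a CArG box and TATAAA on the opposite strand, in the first of its windows, chr1:43196762-43197011, minus strand: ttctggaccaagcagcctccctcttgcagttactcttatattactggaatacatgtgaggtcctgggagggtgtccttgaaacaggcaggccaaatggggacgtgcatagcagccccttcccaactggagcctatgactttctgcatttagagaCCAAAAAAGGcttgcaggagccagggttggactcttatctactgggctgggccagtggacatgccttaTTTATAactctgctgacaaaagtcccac
The M-CAT matches of Ankrd1 lie 210 to 205 and 123 to 118 bases before the start, and that of Ankrd23 lies 120 to 115 bases before it. The other window of Ankrd23 held an M-CAT match 37 to 42 bases after the start. The MEF2 box of Synpo2l lies 109 to 100 bases before the start, and Xirp2 had one 74 to 65 bases before its start. CArG boxes were found in Fhl1, 102 to 93 bases before the start, and in both windows of Fhl2, 96 to 87 and 31 to 22 bases before it. TATAAA was found on the opposite strand in Fhl1 and Fhl2. Enah, which differed more between AB and sAB than Ankrd1 did, had 0 matches, as did Csrp3. Each of the motifs was thus found in 2 of the 8 genes with a window. No match of one motif overlapped a match of another in these windows. Over all 32851 windows of 27025 genes, 14.7% held the M-CAT letters, 13.6% TATAAA, 1.63% a CArG box and 0.557% a MEF2 box. A match describes letters in a window and does not show that a factor binds there.

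Cardiomyocyte markers were high on every array, as the tissue label implies, but most of them do not separate ventricle from atrium. Atrial markers, which varied between mice, are given further below. The mean log2 signal of 8 cardiomyocyte markers lay at 15.4 to 15.5 on AB arrays, 15.6 on sAB arrays, 15.5 on DB3 arrays and 15.6 on sDB3 arrays, and 0 of the 8 passed in AB against sAB, DB3 against AB or DB3 against sDB3. In AB against sDB3, 2 of the 8 were lower, Ryr2 (-0.31) and Tnni3 (-0.18), and 7 of the 8 were lower after centring each array on its median. Centring also gave 1 of the 8 lower in AB against sAB and 2 in DB3 against sDB3. Quantile normalization gave 1 lower in AB against sAB and 1 in AB against sDB3. In bulk tissue, fewer cells of a type and less RNA per cell cannot be told apart. The sAB arrays stood apart from the rest in 2 hybridisation controls. BioC averaged 8.41 ± 0.171 on AB, 8.39 ± 0.0647 on DB3 and 8.39 ± 0.18 on sDB3 arrays, against 10.35 ± 0.185 on sAB arrays (SD, n = 3 each). Cre lay at 14.39 to 14.68 on the 9 other arrays, against 14.11 to 14.28 on the sAB arrays. What set these arrays apart and the sAB group cannot be told apart, and AB is therefore also set against sDB3 below. Between 42.4% and 43.1% of probe sets exceeded a log2 signal of 4 on each array. Over all genes, 1256 were higher and 802 lower in AB than in sAB, and 560 higher and 104 lower in DB3 than in sDB3. These splits depend on the scaling: after centring each array on its median they were 1086 and 1075 for AB against sAB and 127 and 348 for DB3 against sDB3, and after quantile normalization 1101 and 1113, and 106 and 97. For AB against sDB3 the split of 1809 higher and 489 lower became 738 and 1320 after centring. For sDB3 against sAB the split of 573 and 1288 became 1058 and 481 after centring and 712 and 738 after quantile normalization. The difference between both overload effects had 360 higher and 270 lower, against 153 and 430 after centring and 243 and 340 after quantile normalization.

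After 4 weeks of banding, 5 of the 8 measured genes were higher in AB ventricles than in sAB ventricles and 0 were lower. The 5 were Ankrd23, Synpo2l, Enah, Ankrd1 and Xirp1, with folds between 1.58 and 2.46. Of all genes tested, 12% were called higher and 7.69% lower in this comparison. Fhl1, Fhl2 and Csrp3 did not pass. The median log2 difference of the 8 genes was 0.78, beside 0.012 over all genes.

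Ankrd23 had log2 signals of 12.84, 13.02 and 12.97 in AB ventricles, against 11.57, 11.72 and 11.65 in sAB ventricles. All 3 AB values lay more than 1 unit above the highest sAB value, and the difference was 1.30 ± 0.155 (SE), a fold of 2.46 (adjusted p = 0.000464). Its relative Ankrd1 had 14.90, 15.15 and 15.14 in AB ventricles, against 14.29, 14.10 and 14.07 in sAB ventricles. Its groups were separate too, with a smaller difference of 0.91 ± 0.132, a fold of 1.87 (adjusted p = 0.00127). Over all 12 arrays these ankyrin repeat genes had their highest values in AB.

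Among the actin-binding genes, Synpo2l had log2 signals of 12.69, 13.18 and 13.28 in AB ventricles, against 11.98, 11.65 and 11.80 in sAB ventricles. The AB mice were all higher, but they differed among themselves by more than the sham mice did, and the difference was 1.24 ± 0.148, a fold of 2.36 (adjusted p = 0.000464). Enah had 12.09, 12.21 and 12.29 in AB ventricles, against 11.22, 11.13 and 11.23 in sAB ventricles. Its groups were well apart, with a difference of 1.01 ± 0.0699, a fold of 2.01 and the lowest adjusted p of the 8 genes (1.99e-05). Xirp1 had 10.65, 10.95 and 10.68 in AB ventricles, against 10.12, 10.14 and 10.04 in sAB ventricles. It changed least of the 5 genes called, by 0.66 ± 0.102, a fold of 1.58 (adjusted p = 0.00183).

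The LIM domain genes did not pass after banding. Fhl1 had log2 signals of 11.97, 12.58 and 12.53 in AB ventricles, against 11.77, 11.96 and 12.02 in sAB ventricles. Only AB replicate 1 lay within the sham range, the difference was 0.44 ± 0.152 (adjusted p = 0.064), and without that mouse it was 0.64 and passed (adjusted p = 0.00528), as it did with trend and robust moderation (0.0483), where the alternatives ran from 0.00528 to 0.21. Csrp3 had 14.63, 14.66 and 14.75 in AB ventricles, against 14.55, 14.44 and 14.55 in sAB ventricles. Its groups were separate by less than 0.1 units, with a difference of 0.17 ± 0.0737 (adjusted p = 0.131) and a 95% interval of 0.01 to 0.33. Fhl2 had 14.19, 14.09 and 14.24 in AB ventricles, against 14.25, 14.28 and 14.32 in sAB ventricles. It was the one gene of the 8 with a negative difference, -0.11 ± 0.0698 (adjusted p = 0.298), and a 95% interval of -0.26 to 0.04.

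Counted by separation alone, 6 of the 8 genes had all AB values above all sAB values, where 23.1% of all genes did, and 1, Fhl2, had all AB values below, where 19% did. AB replicate 1 had the lowest AB signal in 7 of the 8 genes. It was also the lowest AB array in 34.5% of all genes and in 52.1% of the genes called higher in AB. Leaving out any other AB or sAB mouse kept the count at 5 of 8.

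**Figure D1:**
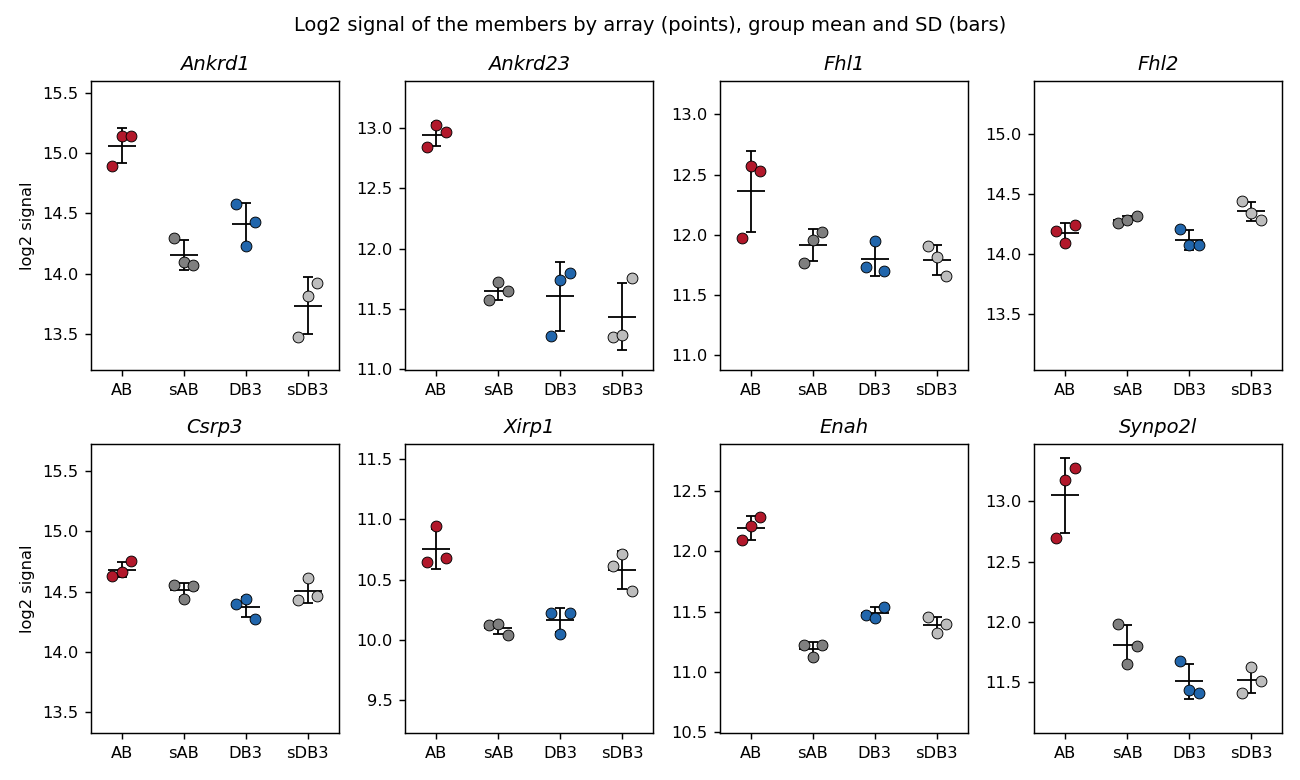
Log2 signal (vertical axis, 1 panel per gene, each spanning the same number of log2 units) of the 8 measured genes on every array (points) in AB, sAB, DB3 and sDB3 ventricles, with the group mean and SD (bars, n = 3). For Ankrd23, Enah and Synpo2l the AB points lie clear of the other 9 arrays, by 1.05, 0.55 and 0.71 log2 units.

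At 3 days after the band was removed, 7 of the 8 genes were lower in DB3 ventricles than in AB ventricles and 0 were higher. Of all genes, 5.12% were called lower and 4.04% higher in this comparison, which involves no sham arrays but shares its AB arrays with the comparison above. DB3 mice differed from AB mice also by the debanding operation itself and by 3 more days of age. Loss of the band, the operation and the added days cannot be told apart here. The median log2 difference was -0.62 for the 8 genes and -0.017 over all genes. The 7 genes ranged from a 2.91-fold fall in Synpo2l to a 1.24-fold fall in Csrp3, and Fhl2 did not pass.

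Synpo2l had log2 signals of 11.67, 11.44 and 11.41 in DB3 ventricles, and in AB ventricles the lowest value was 12.69. It fell by 1.54 ± 0.148, rank 36 of 10435 genes from the lowest difference up (adjusted p = 0.000709). Ankrd23 had 11.27, 11.74 and 11.80 in DB3 ventricles, against a lowest AB value of 12.84. It fell by 1.34 ± 0.155, 2.54-fold and rank 55 (adjusted p = 0.00132). Enah had 11.47, 11.45 and 11.54 in DB3 ventricles, against a lowest AB value of 12.09. It fell by 0.71 ± 0.0699, 1.64-fold (adjusted p = 0.000709).

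Ankrd1 had log2 signals of 14.58, 14.23 and 14.43 in DB3 ventricles, all below the lowest AB value of 14.90. It fell by 0.65 ± 0.132, 1.57-fold (adjusted p = 0.0138). Without AB replicate 2 or AB replicate 3 the call was lost (adjusted p = 0.0614 and 0.0621, where the alternatives ran from 0.0045 to 0.0621). Xirp1 had 10.22, 10.05 and 10.22 in DB3 ventricles, all below the lowest AB value of 10.65. It fell by 0.59 ± 0.102, 1.51-fold (adjusted p = 0.00695).

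The LIM domain genes split in this comparison. Csrp3 had log2 signals of 14.40, 14.44 and 14.28 in DB3 ventricles, below the lowest AB value of 14.63, and fell by 0.31 ± 0.0737 (adjusted p = 0.0263). Its call was lost without DB3 replicate 1, DB3 replicate 3, AB replicate 2 or AB replicate 3 (adjusted p = 0.0557, 0.0807, 0.0766 and 0.109, where the alternatives ran from 0.00474 to 0.109). Fhl1 had 11.74, 11.95 and 11.70 in DB3 ventricles and fell by 0.56 ± 0.152, 1.48-fold (adjusted p = 0.0437), with its highest DB3 value just under the lowest AB value of 11.97. The Fhl1 call was lost without AB replicate 2, AB replicate 3 or any of DB3 replicates 1, 2 and 3 (adjusted p = 0.158, 0.159, 0.119, 0.0512 and 0.117, where the alternatives ran from 0.00491 to 0.159). Fhl2 had 14.21, 14.07 and 14.07 in DB3 ventricles, inside and around the AB range, with a difference of -0.06 ± 0.0698 (adjusted p = 0.667) and a 95% interval of -0.21 to 0.10. Counted by separation, 7 of the 8 genes had all DB3 values below all AB values, where 17.6% of all genes did, and 0 had all above, where 14.7% did. Leaving out 1 mouse gave 4 to 7 genes called lower. Without the dim filter 6 were called lower, without Fhl1 (adjusted p = 0.11), as in the unmoderated analysis (0.0822), and in a fit of only these groups 5, without Fhl1 (0.111) and Csrp3 (0.0593).

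Against the sham of the same schedule, 1 of the 8 genes was higher in DB3 ventricles, Ankrd1, and 1 was lower, Xirp1. Of all genes, 5.37% were called higher and 0.997% lower. The median log2 difference of the 8 genes was -0.0023, beside 0.091 over all genes, and the median of all genes is higher by 0.129 here than after centring each array.

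Ankrd1 had log2 signals of 14.58, 14.23 and 14.43 in DB3 ventricles, against 13.47, 13.81 and 13.92 in sDB3 ventricles. The groups were separate and the difference was 0.68 ± 0.132, a fold of 1.60 (adjusted p = 0.0246). The call lay near the threshold: it was lost without DB3 replicate 1, DB3 replicate 3, sDB3 replicate 1 or sDB3 replicate 2 (adjusted p = 0.0678, 0.0536, 0.0549 and 0.0521), after centring each array on its median (0.05003), without the dim filter (0.0512) and in a fit of only these groups (0.105), where the alternatives ran from 0.0151 to 0.105. Its difference kept its sign in every alternative run, from 0.55 to 0.79. The second probe set of Ankrd1 had 14.21, 13.92 and 14.11 in DB3 ventricles, against 13.04, 13.41 and 13.42 in sDB3 ventricles, and passed as well (0.79, adjusted p = 0.0182 over all probe sets).

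Xirp1 moved the other way, with log2 signals of 10.22, 10.05 and 10.22 in DB3 ventricles, against 10.61, 10.71 and 10.41 in sDB3 ventricles. All DB3 values lay below all sDB3 values, and it fell by 0.41 ± 0.102, 1.33-fold (adjusted p = 0.0427). The call was lost without DB3 replicate 1, 2 or 3 (adjusted p = 0.082, 0.108 and 0.0682) and without sDB3 replicate 1 or 2 (0.0953 and 0.113). It was also lost without the dim filter (adjusted p = 0.0801), with every probe set tested (0.0529), after quantile normalization (0.0503), in an unmoderated analysis of variance (0.0629) and in a fit of only these groups (0.125), where the alternatives ran from 0.0251 to 0.125. The sign was negative in each of them.

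The other 6 genes did not pass against sDB3. Synpo2l had log2 signals of 11.67, 11.44 and 11.41 in DB3 ventricles, against 11.41, 11.63 and 11.51 in sDB3 ventricles, and Ankrd23 had 11.27, 11.74 and 11.80 in DB3 ventricles, against 11.26, 11.28 and 11.76 in sDB3 ventricles. In both genes the groups overlapped, with 95% intervals of the difference of -0.34 to 0.32 for Synpo2l and -0.18 to 0.51 for Ankrd23. Enah differed by 0.10 ± 0.0699 with an interval of -0.06 to 0.25 (adjusted p = 0.414). Fhl1 had an interval of -0.33 to 0.34 (adjusted p = 0.99). Csrp3 differed by -0.13 ± 0.0737 (adjusted p = 0.288).

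Fhl2 had log2 signals of 14.21, 14.07 and 14.07 in DB3 ventricles, against 14.44, 14.34 and 14.28 in sDB3 ventricles. Its groups did not overlap, with the DB3 values lower, but the difference of -0.24 ± 0.0698 did not pass (adjusted p = 0.069). It passed after centring each array on its median, at -0.37 (adjusted p = 0.0197), and with trend and robust moderation (0.0251), where the alternatives ran from 0.0197 to 0.18. By separation, 1 gene had all DB3 values above all sDB3 values, where 22.4% of all genes did, and 2 had all below, where 5.74% did.

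Whether the overload effect differed between the stages was tested as the difference of effects, DB3 minus sDB3 less AB minus sAB. It was negative past the threshold for 4 of the 8 genes, Synpo2l, Ankrd23, Xirp1 and Enah, and positive for 0, where 2.59% of all genes were called negative and 3.45% positive. The median was -0.67 for the 8 genes and 0.069 over all genes. Synpo2l had -1.25 ± 0.21 (adjusted p = 0.0124), Ankrd23 had -1.13 ± 0.219 (adjusted p = 0.0214), Xirp1 had -1.07 ± 0.145 (adjusted p = 0.00481) and Enah had -0.91 ± 0.0988 (adjusted p = 0.002). Ankrd23 lost this call without AB replicate 2 or AB replicate 3 (adjusted p = 0.0557 and 0.0576) and without the dim filter (0.0525), where the alternatives ran from 0.011 to 0.0576.

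Ankrd1 stood apart from its relative Ankrd23 in size, with a difference of effects of -0.23 ± 0.187 (adjusted p = 0.493) and a 95% interval of -0.64 to 0.18. Its overload effect was 0.68 after debanding and 0.91 while banded, and the interval does not show that these are equal. A test between Ankrd1 and Ankrd23 themselves was not made. Csrp3 had -0.30 ± 0.104 (adjusted p = 0.112) and passed with trend and robust moderation (0.0426, where the alternatives ran from 0.0426 to 0.226). Fhl1 had -0.44 ± 0.214 (adjusted p = 0.24) and Fhl2 had -0.13 ± 0.0987 (adjusted p = 0.471). Fhl1 passed without AB replicate 1 (adjusted p = 0.0459, where the alternatives ran from 0.0459 to 0.443).

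**Figure D2:**
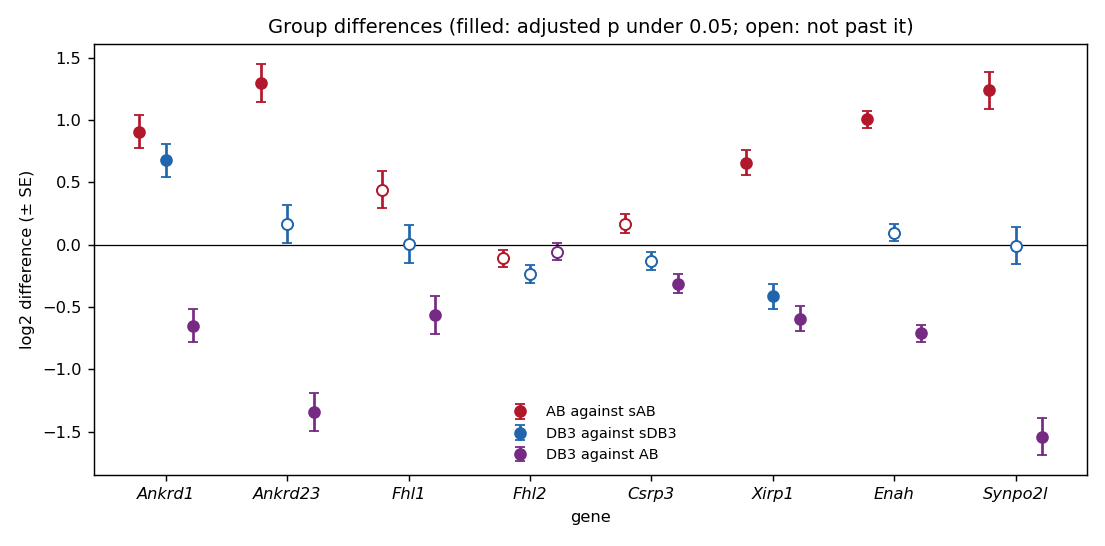
Log2 difference with its SE (vertical axis) of the 8 genes for AB against sAB, DB3 against sDB3 and DB3 against AB, filled where the adjusted p is under 0.05. Synpo2l, Ankrd23 and Enah are filled above 0 for AB against sAB, filled below 0 for DB3 against AB and open near 0 for DB3 against sDB3, while Ankrd1 is filled in all 3.

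Since the sAB arrays stood apart, AB was also set against the later sham. In AB against sDB3, 5 of the 8 genes were higher and 0 lower, where 17.3% of all genes were called higher and 4.69% lower. Synpo2l rose 2.89-fold (adjusted p = 0.000307), Ankrd23 2.85-fold (0.000367), Ankrd1 2.51-fold (0.000323) and Enah 1.75-fold (0.000259), so these genes passed against either sham. Fhl1 rose 1.48-fold (adjusted p = 0.0244) but lost the call without AB replicate 2, AB replicate 3, sDB3 replicate 2 or sDB3 replicate 3 (adjusted p = 0.0909, 0.0942, 0.0591 and 0.0674). Fhl1 also lost it after centring (adjusted p = 0.0673), without the dim filter (0.0664) and in a fit of only these groups (0.0679), where the alternatives ran from 0.0028 to 0.0942. Xirp1 did not pass against this sham, with 10.65, 10.95 and 10.68 in AB ventricles, against 10.61, 10.71 and 10.41 in sDB3 ventricles, a difference of 0.18 ± 0.102 (adjusted p = 0.23) and a 95% interval of -0.05 to 0.40. Csrp3 had 0.18 (adjusted p = 0.103) and passed with trend and robust moderation (0.0385, where the alternatives ran from 0.0385 to 0.822). Fhl2 had -0.18 (adjusted p = 0.0884) and passed after centring, at -0.33 (adjusted p = 0.00657), and with trend and robust moderation (0.0298), where the alternatives ran from 0.00657 to 0.259. The median of all genes lies 0.15 higher here than after centring. By separation, 6 of the 8 genes had all AB values above all sDB3 values, where 32.5% of all genes did, and 1, Fhl2, had all below, where 10.5% did.

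Between the shams, 1 of the 8 genes was higher in sDB3 than in sAB ventricles and 0 were lower, where 5.49% of all genes were called higher and 12.3% lower. It was Xirp1, with 10.61, 10.71 and 10.41 in sDB3 ventricles, against 10.12, 10.14 and 10.04 in sAB ventricles. Every sDB3 value exceeded every sAB value, by a fold of 1.39 (adjusted p = 0.0124). Ankrd1 had a difference of -0.42 ± 0.132 that did not pass (adjusted p = 0.0505), passed as lower in its second probe set (-0.55, adjusted p = 0.0185) and passed without sDB3 replicate 3 (adjusted p = 0.0319). It also passed as lower after quantile normalization (adjusted p = 0.0486), with a dim minimum of 6 (0.0407), as the mean of its probe sets (0.0294) and with trend and robust moderation (0.039), where the alternatives ran from 0.0185 to 0.153. The remaining 6 genes did not pass, with differences between -0.29 for Synpo2l and 0.20 for Enah. Enah passed with trend and robust moderation (adjusted p = 0.0406) and after centring, at 0.31 (0.0201), where the alternatives ran from 0.0201 to 0.951. Centring moves the median of all genes by 0.11 here. By separation, Xirp1 and Enah were the 2 genes with all sDB3 values above all sAB values, where 11.1% of all genes were, and Ankrd1 and Synpo2l the 2 with all below, where 25.9% were.

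Seen over all 4 groups, AB held the 3 highest of the 12 arrays in 5 of the 8 genes, where 6.75% of all genes did so. The gap between the lowest AB array and the highest other array was 1.05 log2 units for Ankrd23, 0.71 for Synpo2l, 0.55 for Enah, 0.32 for Ankrd1 and 0.019 for Csrp3. By group means, the order for Ankrd1 was AB at 15.06 ± 0.144, DB3 at 14.41 ± 0.174, sAB at 14.16 ± 0.121 and sDB3 at 13.74 ± 0.233 (SD, n = 3 each), and DB3 and sAB overlapped. For Ankrd23 the order after AB was sAB at 11.65 ± 0.0719, DB3 at 11.60 ± 0.286 and sDB3 at 11.43 ± 0.279, which overlapped throughout. For Synpo2l it was AB at 13.05 ± 0.313, sAB at 11.81 ± 0.165, with DB3 at 11.51 ± 0.145 level with sDB3 at 11.52 ± 0.107, and only AB was clear of the rest. Enah followed with AB at 12.20 ± 0.0992, DB3 at 11.49 ± 0.0506, sDB3 at 11.39 ± 0.0657 and sAB at 11.19 ± 0.0571.

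The order for Xirp1 was of another kind, with AB at 10.76 ± 0.165 above sAB at 10.10 ± 0.0509, and DB3 at 10.16 ± 0.101 below sDB3 at 10.58 ± 0.157. Fhl1 averaged 12.36 ± 0.335 in AB, 11.92 ± 0.135 in sAB, 11.80 ± 0.135 in DB3 and 11.79 ± 0.126 in sDB3, where the last groups lay within each other's spread. Csrp3 averaged 14.68 ± 0.062 in AB, 14.51 ± 0.0614 in sAB, 14.37 ± 0.0861 in DB3 and 14.50 ± 0.0965 in sDB3, and the last 3 overlapped in part. Fhl2 averaged 14.17 ± 0.0794 in AB and 14.12 ± 0.0799 in DB3, against 14.28 ± 0.0314 in sAB and 14.35 ± 0.0788 in sDB3, so that its highest means were those of the shams. In an F test over the 4 groups 7 of the 8 genes passed, where 37.2% of all genes did, from Enah (adjusted p = 7.39e-05) to Csrp3 (adjusted p = 0.0367), and Fhl2 did not (adjusted p = 0.0619).

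The 8 genes had 18 probe sets, of which 15 passed the dim filter. The 2 probe sets of Ankrd1 gave the same directions, with 1.10 (adjusted p = 0.000376 over all probe sets) for the second in AB against sAB and -0.86 (0.0045) in DB3 against AB. The Enah probe set 1424801_at gave 1.10 (adjusted p = 3.96e-05) and -0.72 (0.00154), and 1421624_a_at, with 8.49, 8.86 and 8.94 in AB ventricles against 7.11, 6.94 and 7.10 in sAB ventricles, gave 1.71 (6.31e-05) and -1.27 (0.00151). These 3 Enah probe sets, counting the one that represents the gene, therefore placed AB above both sAB and DB3.

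Of the dimmer Enah probe sets, 1431162_a_at passed in AB against sAB with 2.0 (adjusted p = 0.00363) but not in DB3 against AB with -0.64 (0.317), and 1442223_at passed in neither, with 0.43 (0.483) and -0.03 (0.981). For Synpo2l, 1428295_at gave 1.91 (adjusted p = 0.000613) and -1.93 (0.00223), and 1447658_x_at gave 0.88 (0.000742) and -1.13 (0.00106). The name of 1447658_x_at marks probes that may also match other transcripts, as does that of 1447657_s_at, which represents the gene. The direction was the same in all 3 Synpo2l probe sets that passed the filter, while the size ranged from 0.88 to 1.91 in AB against sAB.

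**Figure D3:**
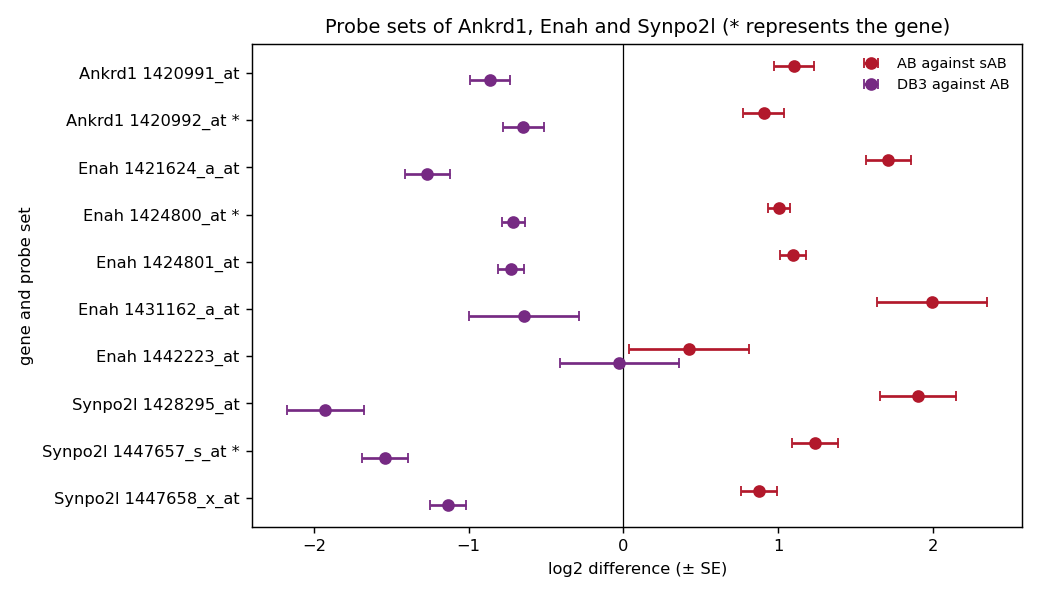
Log2 difference with its SE (horizontal axis) for every probe set of Ankrd1, Enah and Synpo2l that passed the dim filter, in AB against sAB and DB3 against AB, with * on the probe set that represents the gene. All lie right of 0 for AB against sAB and left of 0 for DB3 against AB, and Enah 1442223_at passed in neither.

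Close relatives of the 8 genes, and other genes listed mainly for the same structures, were followed as lists. Beside these lists, 12% of all genes were called higher and 7.69% lower in AB against sAB. In DB3 against AB, 4.04% of all genes were called higher and 5.12% lower. Of the family relatives, 6 of 10 were tested, and in AB against sAB 4 rose and 0 fell: Synpo (synaptopodin, 1.03, adjusted p = 0.000413), the Ena/VASP proteins Evl (0.65, 0.000249) and Vasp (0.47, 0.000936), and Synpo2 (0.32, 0.0133). In DB3 against AB, 2 fell, Evl by 0.33 (adjusted p = 0.0157) and Vasp by 0.31 (0.0159), while Synpo had -0.02 (0.948). Against the later sham, 2 of the 6 were higher in AB, Evl (0.38, adjusted p = 0.00461) and Vasp (0.27, 0.0162). After centring each array, 1 of the 6 was higher there. Synpo averaged 9.57 in AB and 9.32 in sDB3 ventricles and did not pass there (0.25, adjusted p = 0.154), its sAB mean of 8.54 being the lowest. The LIM relatives Csrp1 and Csrp2 did not pass in AB against sAB (0.29, adjusted p = 0.283, and 0.41, 0.422). The list's median was 0.44 in AB against sAB, beside 0.012 over all genes.

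In AB against sAB, 12% of all genes were called higher and 7.69% lower. Of 36 tested genes listed as other Z-disc and I-band genes, 14 rose and 2 fell there, with a median of 0.15. The largest were Calcoco1 (1.14), the actin crosslinker Flnc (filamin C, 0.84, adjusted p = 0.000877), Nrap (0.78, 6.12e-05), which binds actin during myofibril assembly, and Myot (myotilin, 0.77). The list is broader than its name: Calcoco1 is not an established Z-disc gene, and Myom2 is a gene of the M-band. Tmod1 caps thin filaments at the end away from the Z-disc. In DB3 against AB, 2 rose and 6 fell: Tcap (telethonin, 0.88) and Cmya5 (0.59) rose, and Flnc fell by 0.71 (adjusted p = 0.00512) and the PDZ-LIM gene Pdlim7 by 0.52. Tcap was higher by a like amount in sDB3 than in sAB (0.82, adjusted p = 0.0144), and had 0.22 in DB3 against sDB3 (0.477). In sDB3 against sAB, 9 of the 36 were higher and 1 lower, where 5.49% of all genes were called higher and 12.3% lower. Flnc was among the higher (0.37, adjusted p = 0.0467), while Cmya5 (0.11, 0.422) and Pdlim7 (-0.10, 0.534) did not pass. Calcoco1 averaged 9.29 in DB3 and 8.99 in AB ventricles, close to 9.12 in sDB3 ventricles, and 7.85 in sAB ventricles alone was low. In AB against sDB3, 8 of the 36 were higher and 5 lower, where 17.3% of all genes were called higher and 4.69% lower. Flnc (0.47, adjusted p = 0.0169), Nrap (0.74, 0.000259) and Myot (0.91, 0.00268) were among the higher, and Calcoco1 had -0.13 (0.313). After centring each array, 3 of the 36 were higher and 7 lower. In DB3 against sDB3, 3 rose (Trim54, Des and Nrap) and 1, Tmod1, fell, where 5.37% of all genes were called higher and 0.997% lower. This split depends on the scaling: 0 rose and 0 fell after quantile normalization, and 0 rose and 5 fell after centring.

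Of 30 tested other costamere genes, 8 rose and 1 fell in AB against sAB, with a median of 0.074. They included Zyx (zyxin, 0.89), Tln1 (talin, 0.76), Sorbs3 (vinexin, 0.63) and the integrin-linked kinase Ilk (0.44). In DB3 against AB, 1 rose, Ablim1 (0.27), and 3 fell, Sorbs2 by 0.56, Dtna by 0.43 and Ilk by 0.33. Of 19 tested actin filament assembly genes, 8 rose and 0 fell in AB against sAB, with a median of 0.25, led by the coronins Coro6 (0.65) and Coro1c (0.50), with Wdr1 (0.46) and cofilin Cfl1 (0.42). In DB3 against AB, 1 rose, the actin-severing gelsolin gene Gsn (0.33), and 3 fell, Lasp1 by 0.63, Cfl1 by 0.41 and Wdr1 by 0.32. Lasp1 was lower in sDB3 than in sAB as well (-0.45, adjusted p = 0.0236), and had -0.06 in DB3 against sDB3 (0.791). Gsn (-0.05, adjusted p = 0.557), Cfl1 (0.03, 0.871) and Wdr1 (0.23, 0.0815) did not pass in sDB3 against sAB. In AB against sDB3, 9 of the 30 costamere genes were higher and 2 lower, and 9 of the 19 actin assembly genes were higher and 0 lower. Sorbs3, Coro6 and Wdr1 did not pass there (adjusted p = 0.171, 0.0818 and 0.0664). Of all genes, 17.3% were called higher and 4.69% lower in that comparison. These splits depend on the scaling: after centring each array, 3 costamere genes were higher and 4 lower. Of the actin assembly genes, 2 were then higher and 1 lower.

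Of 15 tested factors and cofactors of the SRF, MEF2 and TEAD families and their partners, 6 rose and 1 fell in AB against sAB, with a median of 0.29. Abra, an actin-binding activator of SRF signalling, averaged 9.85 in AB and 8.68 in sAB ventricles, a difference of 1.17 ± 0.195 (adjusted p = 0.00256). Mef2c rose by 0.88, Nkx2-5 by 0.42 and Gata4 by 0.42. In DB3 against AB, 1 rose and 4 fell: Abra fell by 1.02 (adjusted p = 0.0104), Srf by 0.36, the TEAD cofactor gene Wwtr1 by 0.29 and Gata4 by 0.27. Wwtr1 was lower in sDB3 than in sAB as well (-0.28, adjusted p = 0.0199), while Srf (-0.08, 0.547) and Gata4 (0.17, 0.14) did not pass there. Against the later sham, Abra (1.27, adjusted p = 0.00228) and Gata4 (0.25, 0.0395) were higher in AB too. Mef2c averaged 10.54 in DB3, 10.59 in AB and 10.43 in sDB3 ventricles, and 9.71 in sAB ventricles alone was low, so that it did not pass in AB against sDB3 (0.16, adjusted p = 0.267). Nkx2-5 had -0.15 there (adjusted p = 0.312). Of the 15, 6 were higher and 1 lower in AB against sDB3, where 17.3% of all genes were called higher and 4.69% lower. After quantile normalization the counts of the list were 4 and 1, and after centring each array 3 and 2.

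The 4 hypertrophy marker genes give a scale for these differences. In AB against sAB all 4 rose, Myh7 by 3.16, Nppa by 2.39, Acta1 by 1.31 and Nppb by 0.82. In DB3 against sDB3, Myh7 (1.89), Acta1 (1.13) and Nppa (0.91) rose, as Ankrd1 did, and Nppb had -0.36 (adjusted p = 0.256). In DB3 against AB, Nppb fell by 1.80, Nppa by 1.16 and Myh7 by 1.02, and Acta1 had -0.58 (adjusted p = 0.12).

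**Figure D4:**
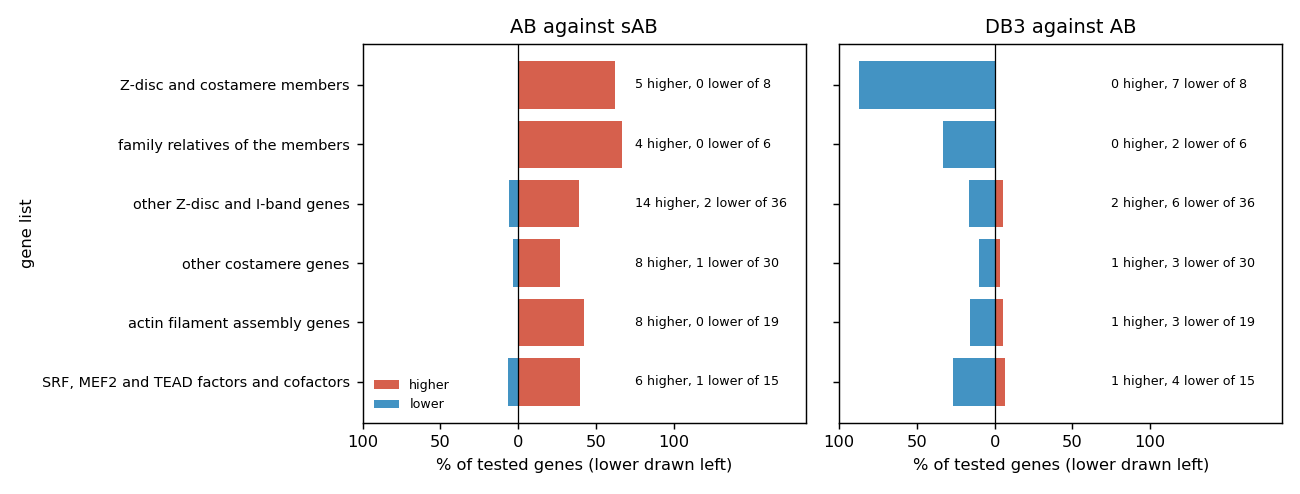
Percent of the tested genes of each list (horizontal axis) called higher (right of 0) and lower (left of 0) in AB against sAB and in DB3 against AB, with the counts beside the bars. The 8 measured members show 5 higher and 0 lower in AB against sAB and 0 higher and 7 lower in DB3 against AB.

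Markers of other cells were followed as well. Of all genes, 12% were called higher and 7.69% lower in AB against sAB, and 17.3% higher and 4.69% lower in AB against sDB3. In DB3 against AB 5.12% were called lower. Of 12 skeletal muscle markers 8 were dim on all arrays (Actn3, Myh1, Myh2, Myh4, Tnnt3, Atp2a1, Pvalb and Mybpc1), and the mean of the 12 was 3.89 to 3.94 on AB, 3.78 to 3.88 on sAB, 3.70 to 3.78 on DB3 and 3.70 to 3.76 on sDB3 arrays. Of the 3 tested, Mybpc2 (1.51) and Myl1 (0.88) rose and Mylpf fell by 0.45 in AB against sAB, and Mybpc2 fell by 1.34 and Myl1 by 0.95 in DB3 against AB. The 8 fibroblast markers averaged 10.6 to 11 on AB, 9.88 to 10.8 on sAB, 10 to 10.6 on DB3 and 10.1 to 10.2 on sDB3 arrays, and 2 of 8 rose in AB against sAB. The 8 endothelial markers averaged 9.40 to 9.46 on AB, 9.18 on sAB, 9.07 to 9.29 on DB3 and 8.98 to 9.16 on sDB3 arrays, with 2 of 8 higher in AB against sAB. Of the 8 smooth muscle and pericyte markers 2 rose, and of the 8 macrophage markers 0 passed. In AB against sDB3, 5 of 8 endothelial markers (median 0.35), 3 of 8 smooth muscle and pericyte markers, 1 of 8 fibroblast markers and 0 of 8 macrophage markers were higher and 0 lower, and after centring 1, 2, 0 and 0 were higher in the same order. The share of these cells in the results was not tested.

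The atrial markers varied between mice of every group, from 7.90 to 9.44 on AB, 6.67 to 7.65 on sAB, 6.01 to 9.77 on DB3 and 7.90 to 9.59 on sDB3 arrays, with Bmp10 dim on all, and Nppa was the one atrial marker called in AB against sAB. The difference between the signals of the 3′ and 5′ Actb control probe sets, a measure of RNA integrity, was 1.02 to 1.13 on AB, 1.2 to 1.26 on sAB, 1.11 to 1.32 on DB3 and 1.2 to 1.25 on sDB3 arrays. The Actb difference was thus lower on the AB arrays than on the sham arrays. For Gapdh it was 0.0284 to 0.0339 on AB, -0.0463 to 0.0504 on sAB and -0.0625 to 0.039 on sDB3 arrays. The AB arrays lay within the sham range for Gapdh. The part of RNA integrity in the results was not tested.

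Across the 12 arrays, which share 4 groups, the closest pair of the 8 genes was Ankrd23 and Synpo2l (r = 0.911), followed by Ankrd23 and Enah (0.899) and Enah and Synpo2l (0.872). Once the group means were removed, these values were -0.17, 0.167 and 0.496. Ankrd1 and Synpo2l had 0.848 and kept 0.711 within groups. Xirp1 and Ankrd1 had 0.337 and 0.189 within groups, and Fhl2 ran against Ankrd1 with -0.65, or -0.257 within groups. The within-group value largest in size was -0.725, for Ankrd23 and Fhl2, which had -0.457 over all arrays.

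For each gene, the 3 other genes with the most similar pattern over the 12 arrays were found by Pearson's r. For Ankrd1 they were Cyb5r1 (0.957), Vav3 (0.955) and Masp1 (0.949), and for Ankrd23 Col4a4 (0.976), Gm13889 (0.975) and Vgll3 (0.971). Synpo2l had Lman1l (0.971), Egr2 (0.969) and St6galnac4 (0.966), and Enah had Tgfb2 (0.963), Cfl2 (0.963) and Itga9 (0.961). Lman1l averaged 4.84 in AB and 2.24 to 2.28 in the other groups, near the lowest value of all, 2.23. Egr2 averaged 4.86 in AB and 3.20 to 3.44 in the other groups. By these means both exceeded the dim minimum of 4 in AB alone, so that filter favoured a pattern like that of Synpo2l. Xirp1 had Myadm (0.890), Flnc (0.874) and Cdc42ep1 (0.870). Fhl1 had Uggt1 (0.958), Mtpn (0.937) and Pmepa1 (0.932), Csrp3 had Mob1b (0.924), Tnnc1 (0.911) and Azin1 (0.908), and Fhl2 had Iqsec2 (0.905), Pnkd (0.893) and Car14 (0.888). No gene recurred among these lists, and the values are descriptions over 12 arrays of 4 groups.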

How the data were processed

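Total RNA of 12 left ventricles was labelled with biotin and hybridised to Affymetrix arrays, per the labels' protocols. The deposited values are log2 signals per probe set made with GCRMA, per the submitters' processing notes. Settings, version and any genome build were not given in the sources used here. In all, the table holds 45101 probe sets, of which 64 are controls, 34945 carry 1 gene symbol in the platform annotation, 932 several and 9160 none, and 34741 of those with 1 symbol were found by gene ID in the RefSeq table. Values ran from 2.23 to 16.61. Probe sets above log2 4 on at least 3 of 12 arrays were kept (17817), and a gene was represented by the one with the highest mean (10435 genes).

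Differences were fitted on the log2 values with lmFit and eBayes of limma 3.58.1 (R 4.3.3) in 1 model of the 4 groups, with 8 residual and 2.68 prior degrees of freedom, after the per-gene analysis of variance named in the series' design. Adjustment was by Benjamini-Hochberg over all genes, and for single probe sets over all probe sets kept. The smallest exact permutation p of 3 against 3 arrays is 0.1. The script was tested on simulated data. The number of arrays limits the precision. Named beside the members were, by rule, up to 4 genes per list with the largest called change in AB against sAB and in DB3 against AB, the 4 hypertrophy markers, and 3 genes per member by correlation. Genes named for DB3 against sDB3 and single relatives that did not pass were picked after their values were seen. The members, lists and tests were chosen with earlier results of these data known. Alternatives were no dim filter, a minimum of 6, averaging probe sets per gene, testing each probe set, quantile normalization, median centring, fits without the groups not compared, analysis of variance without moderation, trend and robust moderation, and leaving out each mouse.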

Additional observations from a re-analysis of the deposited data

Results flagged for a closer look

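The effect of overload differed between the banded stage and 3 days after debanding, by the test of the difference of effects, for Synpo2l (-1.25), Ankrd23 (-1.13), Xirp1 (-1.07) and Enah (-0.91). In Xirp1 the effects had opposite signs, -0.41 for DB3 against sDB3 and 0.66 for AB against sAB, and the later sham was itself higher than the earlier one by 0.48. In each of these results 1 term comes from the sAB arrays, which stood apart in 2 hybridisation controls. With sDB3 as the sham for both stages the sham drops out and the difference of effects becomes DB3 against AB, where all 4 genes were lower. That repeats the comparison given above and is no separate check of the difference of effects. Against sDB3, the difference of Xirp1 in AB did not pass (0.18, adjusted p = 0.23).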

How the results depend on the processing

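The counts of genes past the threshold were 2058 for AB against sAB, 664 for DB3 against sDB3, 956 for DB3 against AB, 630 for the difference of effects, 1861 for sDB3 against sAB and 2298 for AB against sDB3. Without the dim filter they were 323 for DB3 against sDB3 and 338 for the difference of effects, and with every probe set tested 3391 for AB against sAB, 976 for the difference of effects and 2987 for sDB3 against sAB. In fits of only the groups compared they were 0 for DB3 against sDB3 by limma (2137 at an unadjusted p under 0.05), 629 for DB3 against AB and 571 for sDB3 against sAB. DB3 against sDB3 gave 203 after quantile normalization and 427 in an unmoderated analysis of variance. The cause was not tested. Leaving out 1 mouse gave 1139 to 1701 genes for AB against sAB, 170 to 459 for DB3 against sDB3, 365 to 824 for DB3 against AB, 152 to 567 for the difference of effects, 967 to 1945 for sDB3 against sAB and 1124 to 2005 for AB against sDB3.

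Of the values of the 8 genes under the alternatives, 721 kept direction and side of the threshold, 47 lost the call, 17 gained it and 17 turned sign, 1 of them of a difference that had passed, the difference of effects of Enah, in a dim probe set. For DB3 against sDB3, Synpo2l had 0.0043 as the mean of its probe sets, 0.072 in probe set 1428295_at and -0.092 to 0.047 without 1 mouse, Fhl1 had -0.0082 after quantile normalization, -0.13 after centring and -0.073 to 0.061 without 1 mouse, and Enah had -0.033 after centring. For sDB3 against sAB, Csrp3 had 0.10 after centring and -0.065 to 0.024 without 1 mouse. That Enah probe set, 1442223_at, had 0.0803 for the difference of effects and -0.11 for sDB3 against sAB. No paired analysis was possible because replicate numbers were given in accession order and the labels name no shared animal, litter or batch. With 3 arrays per group, differences of the size of those of Fhl2 and Csrp3 were not resolved from 0 in most comparisons.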
